A study of Mus musculus with 26 samples.

Results

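The 10 genes described here code for the adhesion and homing receptors through which blood stem and progenitor cells hold to, enter and stay in the bone marrow: the integrin chains Itgal, Itgam, Itgb2, Itga4, Itga5, Itga6 and Itgb1, the selectin ligand Selplg, the hyaluronan receptor Cd44 and the chemokine receptor Cxcr4. They were taken by gene symbol from the deposited table of read counts, in which each has 1 row among 24091 genes. All 10 were among the 13379 genes with enough reads to be tested, at 651 to 14777 counts in every library. The libraries were made from LSK cells, the bone marrow fraction that lacks lineage markers and carries Sca-1 and c-Kit, which is enriched for stem and multipotent progenitor cells. All 26 libraries came from C57BL/6 mice with SCLtTA/BCR-ABL, a transgenic model of chronic myeloid leukaemia (CML) in which a stem cell leukaemia enhancer drives the transactivator that switches BCR-ABL on, so every group, controls included, was leukaemic. The study asked what the loss of Spred1, a brake on RAS-ERK signalling at the cell membrane, does to leukaemic stem cells when it is lost everywhere, in blood cells or in endothelium.

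The global KO group (6 libraries) lacked Spred1 in the whole animal and had Spred1 wt (5 libraries) as its control. The EC KO group (5 libraries) lacked it in endothelial cells, with a Cre driver not given in the sources used here, so that the sorted cells themselves were not the target of the deletion. EC wt, the control that the study made for EC KO, was not analysed here, and Spred1 wt stood in for it. HSC KO and HSC wt, with 5 libraries in each group, were both dosed intraperitoneally with poly(I:C), which induces interferon, to switch on Mx1-cre (250 µg at a time, 7 times, every 2 days). Mx1-cre responds to interferon and acts in blood stem cells but also in other interferon-responsive tissues. Whether the other 3 groups received poly(I:C), and the ages of the mice, are not given in the sources used here. Each library is read as 1 mouse, so the p-values measure the spread between these libraries.

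Integrins are pairs of an alpha and a beta chain. Itgb2 pairs with Itgal to form LFA-1, which binds ICAM molecules, and with Itgam to form Mac-1, a receptor of mature myeloid cells, whereas Itgb1 pairs with Itga4 (VLA-4, for VCAM-1 and fibronectin), Itga5 (VLA-5, for fibronectin) and Itga6 (VLA-6, for laminin). In the marrow, PSGL-1 (the product of Selplg) and CD44 let circulating progenitors roll on endothelial selectins, CXCR4 senses CXCL12 from the niche, and integrins then provide firm adhesion. In mouse CML models, homing of leukaemic stem cells has been found to rely on CD44 and on selectins more than homing of normal stem cells does.

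Totals lay between 14816100 and 26714300 counts per library, to 6 digits. Spred1 itself stood at 32.7 ± 7.36 CPM (read counts divided by the scaled library size, mean ± SD) in global KO, at 70.4 ± 11.4 CPM in EC KO, at 35.4 ± 7.29 CPM in HSC KO, at 104 ± 4.90 CPM in HSC wt and at 114 ± 20.7 CPM in Spred1 wt. Spred1 thus fell in the sorted cells of EC KO too, by 0.70 on the log2 scale (edgeR adjusted p = 0.00527). Whether the deletion itself reached those cells was not tested. Every library of a knockout group lay below every library of its control. Kit and Ly6a, which code for the c-Kit and Sca-1 of the sort, were present in every library, at 344 to 1249 CPM and at 41.0 to 83.6 CPM. Cd3e and Cdh5, markers of T cells and endothelium, stayed at or below 1.40 and 2.21 CPM, while their whole marker lists summed to 85.8 to 158 CPM (T and NK cells) and 196 to 324 CPM (endothelium). The lists of B and plasma cells summed to 41.9 to 876 CPM, of neutrophils to 62.4 to 936 CPM and of erythroid cells to 5.18 to 350.3 CPM, the last in HSC KO 1. Mast cell transcripts set libraries apart within groups: Cpa3, the mast cell carboxypeptidase, ran from 178 to 4896 CPM. Libraries EC KO 3, EC KO 4, EC KO 5 and HSC KO 1 had the lowest means of the 12 mast cell markers (a list that also holds basophil genes), at 4.4 to 4.78 log2 CPM against 5.99 to 9.13 in the other 22 libraries. By summed CPM of the same list the order differed. Global KO 3 (1557 CPM) was lowest, and global KO 6 (1813 CPM) also lay below EC KO 3, EC KO 4 and EC KO 5 (1978, 2855 and 3110 CPM). In bulk RNA, fewer cells of a type and less RNA per cell cannot be told apart.

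Scaled for the length of the gene model, Itgb1 was the most abundant of the 10 transcripts and Itgam the least. Over the 26 libraries Itgb1 averaged 80.8 CPM per kilobase, followed by Selplg at 64.6, Cxcr4 at 57.3, Cd44 at 49.0, Itga4 at 38.6, Itgal at 38.3, Itgb2 at 35.9, Itga6 at 20.5, Itga5 at 16 and Itgam at 10.8 CPM per kilobase. Itgb1 exceeded Selplg in 25 of 26 libraries, Cd44 exceeded Itga4 in 25, Itgb2 exceeded Itga6 in 26, Itga6 exceeded Itga5 in 24 and Itga5 exceeded Itgam in 24. The other neighbours in that order (Selplg and Cxcr4, Cxcr4 and Cd44, Itga4 and Itgal, Itgal and Itgb2) differed on average by less than 1 SD of their difference between libraries. Among the partners of Itgb1, the VLA-4 chain Itga4 thus lay above the VLA-6 chain Itga6 and the VLA-5 chain Itga5 per length. Cd44 varied least between libraries, with a coefficient of variation of 7.46%, and Itgam most, at 24.7%.

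**Figure D1:**
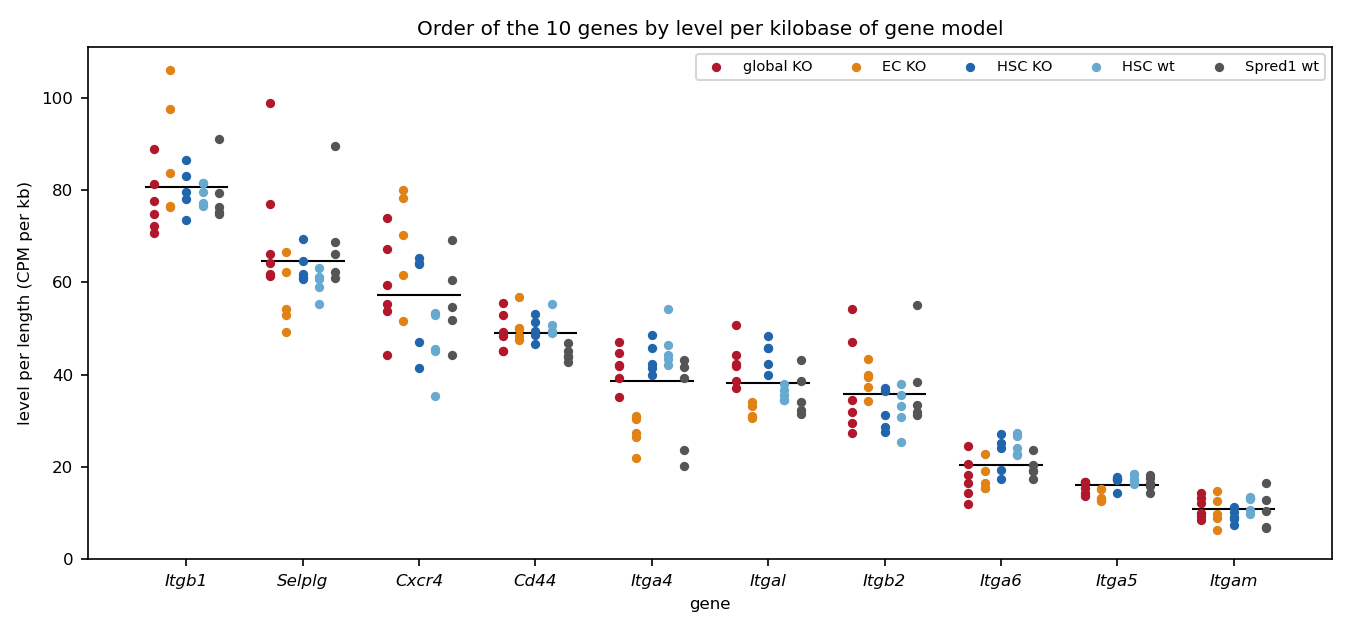
Level of each of the 10 genes in CPM per kilobase of gene model, 1 point per library, coloured by group, with a bar at the mean of the 26 libraries. Genes run from Itgb1 (mean 80.8) down to Itgam (mean 10.8), and the points of Selplg, Cxcr4 and Cd44 overlap.

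In both comparisons in which the deletion of Spred1 was meant to take in blood cells, none of the 10 transcripts passed the test. Itgal, the alpha chain of LFA-1, had the smallest p of the 10 in each. In global KO against Spred1 wt, 0 of the 10 passed (edgeR quasi-likelihood F-test, adjusted p under 0.05 over all genes tested), where 10 genes of the whole table, 0.0747%, did, and 3 of the 10 (Itgal, Cd44 and Itga4) had an unadjusted p under 0.05, as had 5.53% of all genes. DESeq2 and limma voom also called 0 and placed 3 of the 10 under that unadjusted threshold. In HSC KO against HSC wt, 0 of the 10 passed in edgeR, DESeq2 and limma voom, where edgeR called 3 genes or 0.0224% of the table, and 1 of the 10 (Itgal) had an unadjusted p under 0.05 with each tool, as had 2.16% of all genes in edgeR. The median log2 difference of the 10 was 0.06 in global KO and -0.02 in HSC KO, beside 0.01 and 0.02 for all genes tested. For the difference between both knockout effects, 0 of the 10 passed in edgeR (2 genes, 0.0149% of the table), DESeq2 and limma voom, and 0 in edgeR, 1 in DESeq2 and 2 in limma voom had an unadjusted p under 0.05 there (2.14% of all genes in edgeR).

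More moved in EC KO against Spred1 wt, where 1065 genes or 7.96% of the table passed in edgeR and 1 of the 10 did: Itga5, which fell, as did 4.47% of all genes. The median log2 difference of the 10 was -0.10 beside 0.02 for all genes tested, and 3 of the 10 (Itga5, Cd44 and Selplg) had an unadjusted p under 0.05, against 25.1% of all genes. DESeq2 placed 4 and limma voom 5 of the 10 under that unadjusted threshold, and each called 1. In edgeR neither count of the 10 stood clear of the share of all genes. The controls were also set against each other. HSC wt against Spred1 wt gave 0 passing members in edgeR (4 genes, 0.0299% of the table), DESeq2 and limma voom, and 2 (Cd44 and Itga4) with an unadjusted p under 0.05 in edgeR, 3 in DESeq2 and 2 in limma voom, as had 6.35% of all genes in edgeR. The log2 differences of the 10 ran from -0.27 (Cxcr4) to 0.45 (Itga4) there, and those between both knockout effects from -0.21 (Cxcr4) to 0.43 (Itgam). Global KO, EC KO and HSC wt were each set against the same 5 Spred1 wt libraries, so their differences share any peculiarity of those libraries.

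**Figure D2:**
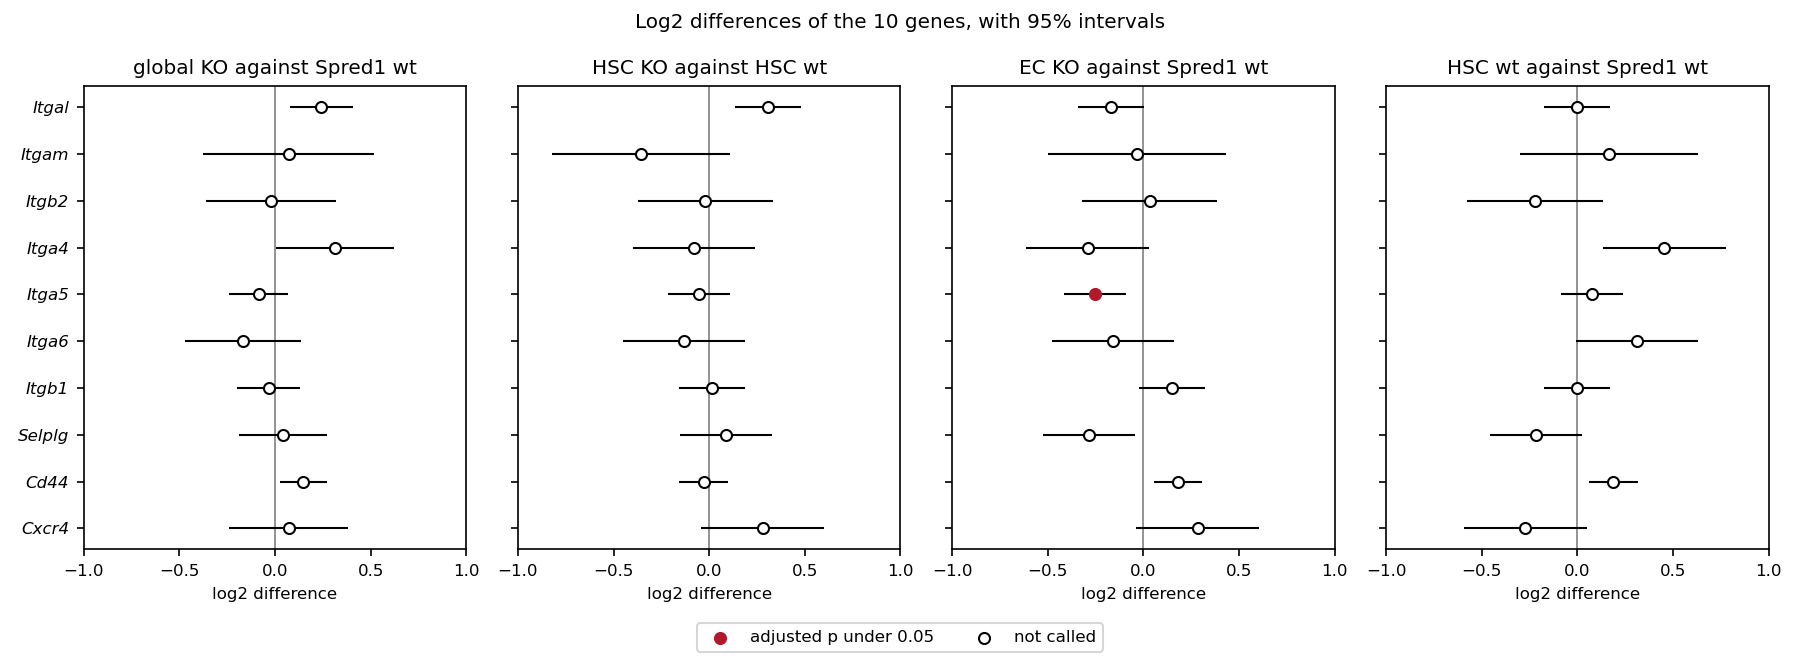
Log2 difference of each gene in 4 comparisons (points) with its 95% interval (lines), from the edgeR fit of all 26 libraries. The filled point is Itga5 in EC KO against Spred1 wt, at -0.25, the one value with an adjusted p under 0.05.

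Itgal (mm10, chromosome 7, 127296260 to 127335137, plus strand) had its highest means in HSC KO and global KO. In global KO its lowest, median and highest libraries stood at 197, 223 and 270.0 CPM, and the Spred1 wt libraries stood at 181, 229, 205, 167 and 172 CPM. Only 2 of 6 global KO libraries lay above all controls, and none of the 10 genes separated global KO from Spred1 wt, as 0.321% of all genes did. The HSC KO libraries stood at 243, 212, 257, 243 and 224 CPM, against 202, 195, 184, 189 and 183 CPM in HSC wt. These groups did not overlap, as was the case for 0.65% of all genes tested. Xist, a transcript of female cells, had a median of 2865 CPM in HSC KO (0 to 4533) and of 0.36 CPM in HSC wt (0.325 to 3213), and with its level as a covariate the log2 difference of Itgal was 0.32 (SE 0.0840). The log2 difference was 0.31 in HSC KO (SE 0.0825, unadjusted p = 0.000976, edgeR adjusted p = 0.999) and 0.24 in global KO (SE 0.0792, unadjusted p = 0.00525, edgeR adjusted p = 0.521), so neither passed over the whole table. Over the alternatives tried, the adjusted p of Itgal ran from 0.0653 (limma voom) to 1 in HSC KO and from 0.12 (without Spred1 wt 2) to 1 in global KO. The 2 effects differed by -0.07 (95% interval -0.30 to 0.17). Their mean, a contrast chosen after the values were seen, was 0.28 (SE 0.0572), and with an unadjusted p of 6.11e-05 it gave Itgal rank 9 of all genes by p (edgeR adjusted p = 0.0900), where 7 genes or 0.0523% of the table passed. In EC KO the 5 libraries stood at 162, 164, 165, 177 and 181 CPM, below every HSC wt library and within or below the range of Spred1 wt (log2 difference from Spred1 wt -0.17, unadjusted p = 0.0512). How many of all genes separate EC KO from HSC wt in this way was not computed. Group means were 226 ± 25.7 CPM in global KO, 169.7 ± 8.30 in EC KO, 236 ± 17.8 in HSC KO, 191 ± 7.90 in HSC wt and 191 ± 26 in Spred1 wt. From high to low, HSC KO and global KO did not differ by more than their spread, nor did HSC wt and Spred1 wt.

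Itgam (chromosome 7, 128062640 to 128128160, plus strand), the alpha chain of Mac-1, showed no such order. It stood at 64.0, 46.3, 71.0, 57.0 and 54.2 CPM in HSC KO, against 83.1, 80.8, 61.0, 83.4 and 66.7 CPM in HSC wt, and the groups overlapped (log2 difference -0.36, SE 0.224, edgeR adjusted p = 0.999). Spred1 wt spread from 42.3 to 103 CPM, which is wide enough to hold every global KO library and 4 of 5 EC KO libraries. The log2 difference was 0.07 (95% interval -0.37 to 0.52) in global KO and -0.03 (95% interval -0.50 to 0.43) in EC KO. Set over Itgam per length, Itgal had a ratio of 4.78 ± 0.444 in HSC KO and 3.02 ± 0.352 in HSC wt (SD, n = 5 each). The lowest HSC KO ratio was 4.24 and the highest HSC wt ratio 3.53. The same ratio was 3.91 ± 0.944 in global KO, 3.276 ± 0.972 in EC KO and 3.67 ± 1.06 in Spred1 wt, with wide overlap, and it was chosen after the levels were seen and not tested. In the reference annotation the exons of Itgam overlap those of Gm49368 on the same strand, a gene with no row of its own in the table, so some Itgam counts are uncertain.

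Itgb2 (chromosome 10, 77530348 to 77565674, plus strand), the beta chain that both Itgal and Itgam need, did not follow Itgal. Its group means lay between 94.6 ± 12.8 CPM in HSC KO and 114 ± 9.87 CPM in EC KO, and none of the neighbouring means differed beyond the spread. The log2 difference was -0.02 (95% interval -0.37 to 0.34) in HSC KO, -0.02 (95% interval -0.36 to 0.32) in global KO and 0.03 (95% interval -0.32 to 0.39) in EC KO. One library each of global KO and Spred1 wt stood highest, at 159.8 and 162 CPM.

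**Figure D3:**
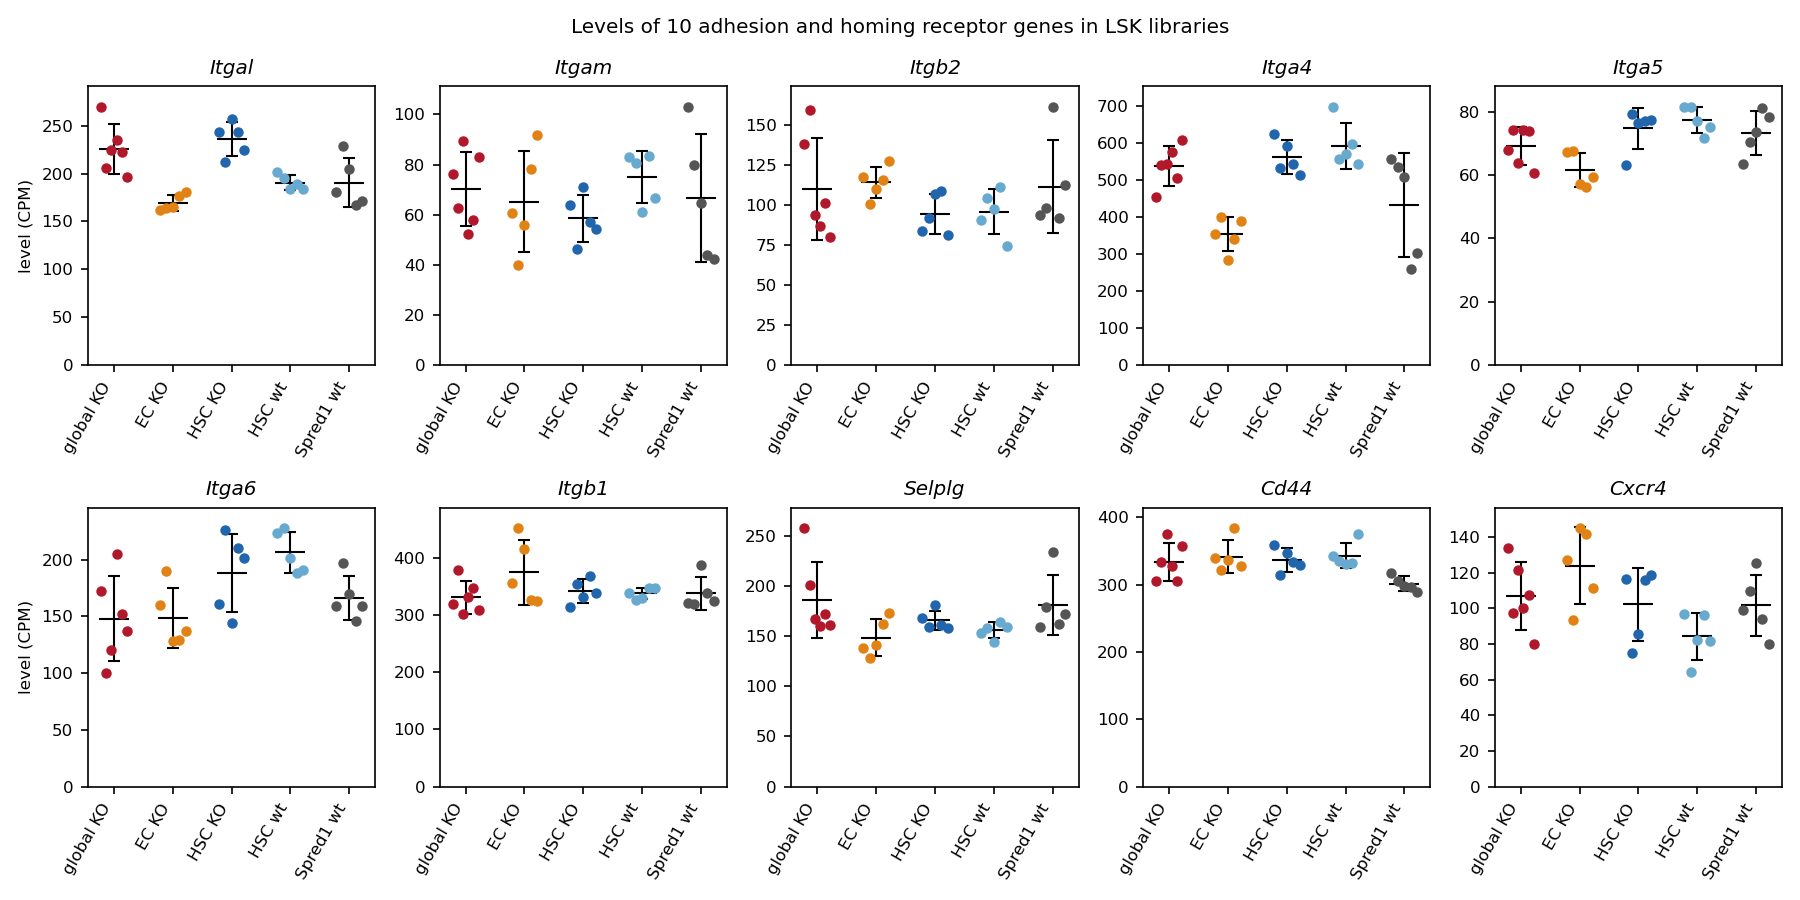
Level of each gene in CPM (vertical axes, from 0), 1 point per library, with the group mean and SD in black, in global KO, EC KO, HSC KO, HSC wt and Spred1 wt. Itgal lies at 212 CPM or above in all 5 HSC KO libraries and at 202 CPM or below in all 5 HSC wt libraries, and Itga4 of Spred1 wt splits into 3 libraries at 507 CPM or above and 2 at 259 and 303 CPM.

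Itgb1 (chromosome 8, 128685654 to 128733579, plus strand), the common beta chain of the VLA integrins, was nearly level across groups, with means of 331 ± 28.4 CPM in global KO, 375 ± 56.7 in EC KO, 341 ± 21.1 in HSC KO, 338 ± 10.2 in HSC wt and 338 ± 29.0 in Spred1 wt. No neighbouring means differed beyond their spread. Libraries EC KO 2 and EC KO 3 stood at 452 and 416 CPM, above every library of the other groups. The log2 difference of EC KO was 0.15 (SE 0.0826, edgeR adjusted p = 0.264), and it was 0.06 (adjusted p = 0.695) without EC KO 2. It was -0.03 (95% interval -0.20 to 0.13) in global KO and 0.02 (95% interval -0.16 to 0.19) in HSC KO. With the mean mast cell and macrophage marker levels as covariates that of EC KO was 0.32, with an edgeR adjusted p of 0.0179.

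Itga4 (chromosome 2, 79255426 to 79333114, plus strand) had its lowest mean in EC KO, and the size of the difference depended on the control. It stood at 353, 399.9, 283, 341 and 390.4 CPM in EC KO, against 557, 536, 507, 259 and 303 CPM in Spred1 wt. The Spred1 wt libraries thus fell on both sides of EC KO, and the log2 difference of -0.29 did not pass (SE 0.154, edgeR adjusted p = 0.242). Without Spred1 wt 4 it was -0.44 (adjusted p = 0.0390). The HSC wt libraries stood at 698, 558, 569, 597 and 542 CPM, all above all EC KO libraries, and against them the difference was -0.75 (SE 0.155, edgeR adjusted p = 0.00317). The share of all genes without overlap between EC KO and HSC wt was not computed, and 11.3% of all genes passed there. Against the average of HSC wt and Spred1 wt it was -0.52 (adjusted p = 0.0123). HSC wt was dosed with poly(I:C), which is not given for EC KO, so genotype and dosing cannot be told apart here. Global KO, at 454 for the lowest, 542 for the median and 607 for the highest library, had a log2 difference of 0.31 from Spred1 wt (unadjusted p = 0.0446, edgeR adjusted p = 0.897), and HSC wt one of 0.45 (unadjusted p = 0.00694, edgeR adjusted p = 0.549), both over the same split controls. HSC KO, at 561 ± 45.8 CPM, differed from HSC wt, at 593 ± 62.2 CPM, by -0.08 (95% interval -0.40 to 0.24). Exons of Cerkl lie over Itga4 on the other strand, and since the strand setting of counting is not given in the sources used here, reads of both genes may be mixed.

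Itga5 (chromosome 15, 103344286 to 103366791, minus strand), the fibronectin-binding alpha chain of VLA-5, was the 1 member that passed in EC KO against Spred1 wt. It stood at 67.4, 67.5, 57.3, 56.4 and 59.2 CPM in EC KO, against 63.5, 70.4, 73.7, 81.2 and 78.2 CPM in Spred1 wt, and 3 of 5 EC KO libraries lay below all controls. Group means were 61.6 ± 5.47 and 73.4 ± 6.91 CPM (n = 5 each), and the log2 difference was -0.25 (SE 0.0778, edgeR adjusted p = 0.0447), a change of -16.1%. The call did not hold without EC KO 3 (adjusted p = 0.132), EC KO 4 (0.12), Spred1 wt 3 (0.0649), Spred1 wt 4 (0.0780) or Spred1 wt 5 (0.0967), nor with limma voom (0.0560), although the difference stayed between -0.28 and -0.22 in these fits and in that of the compared groups alone (adjusted p = 0.114). The same 3 EC KO libraries had the low mast cell marker levels given above. They also lay above EC KO 1 and EC KO 2 in mean log2 CPM of macrophage (4.01 to 4.59, against 2.11 and 2.81), dendritic (3.79 to 4.44, against 2.22 in both), erythroid (1.11 to 3.66, against -1.20 and -0.70), T and NK cell (3.11 to 3.64, against 2.29 and 2.59) and endothelial markers (2.95 to 3.42, against 2.06 and 2.14). The part of the last 4 lists in the result was not tested. In Spred1 wt the macrophage means ran from 2.32 to 4.54, the dendritic from 2.49 to 3.87 and the erythroid from -0.38 to 1.80. Of the 12 mast cell and basophil markers 2 fell in this comparison (Mcpt4 by 3.74 and Gzmb by 2.62 on the log2 scale, edgeR adjusted p = 0.0130 and 0.0242). Of the other 10, which did not pass, 7 had differences below 0 and 3 above it: the basophil genes Mcpt8 (1.10, unadjusted p = 0.0374) and Prss34 (1.16), and Ms4a2 (0.0022). The list summed to 1978 to 5118 CPM in EC KO and to 2690 to 16551 CPM in Spred1 wt, with 1 marker at 0 in each of EC KO 4 and EC KO 5. With the mast cell and macrophage means as covariates the difference of Itga5 was -0.07 (SE 0.0718, edgeR adjusted p = 0.488). Xist reached 2713 CPM in EC KO and 5.07 CPM in Spred1 wt, and with its level as a covariate the difference was -0.25 (adjusted p = 0.0780). Against HSC wt, at 81.5, 81.6, 77.2, 71.8 and 75.1 CPM, all 5 EC KO libraries were lower and the difference was -0.33 (SE 0.0776, edgeR adjusted p = 0.00760). As for Itga4, no share of all genes without overlap was computed for these groups, and 11.3% of all genes passed. Neither global KO (69.1 ± 5.92 CPM, log2 difference -0.09, 95% interval -0.24 to 0.07) nor HSC KO (74.7 ± 6.46 CPM, log2 difference -0.05, 95% interval -0.21 to 0.11) passed for Itga5.

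Itga6 (chromosome 2, 71786939 to 71858427, plus strand), the laminin-binding alpha chain of VLA-6, had its highest means in HSC KO and HSC wt, at 189 ± 34.5 and 206 ± 18.1 CPM. The other means were 148 ± 37.5 CPM in global KO, 149 ± 26.4 in EC KO and 166 ± 19.4 in Spred1 wt, and no neighbours in this order differed beyond their spread. HSC wt differed from Spred1 wt by 0.31 (95% interval -0.01 to 0.63, edgeR adjusted p = 0.783). Global KO had -0.17 (95% interval -0.47 to 0.14) against Spred1 wt and HSC KO -0.13 (95% interval -0.45 to 0.19) against HSC wt. EC KO had -0.16 against Spred1 wt (edgeR adjusted p = 0.547) and -0.47 against HSC wt (edgeR adjusted p = 0.0473, 4 of 5 libraries below all HSC wt libraries).

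Selplg (chromosome 5, 113817798 to 113830501, minus strand) had a log2 difference of -0.29 in EC KO (SE 0.116, unadjusted p = 0.0206, edgeR adjusted p = 0.12). The EC KO libraries stood at 138, 128, 141, 162 and 173 CPM, against 159, 179, 233, 162 and 172 CPM in Spred1 wt, and 3 of 5 lay below all controls. Without EC KO 5 the difference was -0.37 and passed (adjusted p = 0.0399). In global KO the libraries ran from 159.8 CPM through a median of 169.6 to 257 CPM, the last in global KO 1, and the log2 difference from Spred1 wt was 0.04 (95% interval -0.19 to 0.27). HSC KO had 165 ± 9.43 CPM and HSC wt 156 ± 7.78 CPM, with a difference of 0.09 (95% interval -0.15 to 0.33).

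Cd44 (chromosome 2, 102811142 to 102901665, minus strand) had its lowest mean in Spred1 wt. It averaged 334 ± 28.1 CPM in global KO, 342 ± 24.6 in EC KO, 337 ± 17.3 in HSC KO and 343 ± 18.1 in HSC wt, against 301 ± 10.8 CPM in Spred1 wt. The EC KO libraries stood at 339, 322, 337, 384 and 327 CPM and those of HSC wt at 343, 335, 331, 332 and 374 CPM, against 317, 306, 298, 297 and 288 CPM in Spred1 wt, so that neither group overlapped with Spred1 wt. Groups without overlap were found for 5.55% of all genes in EC KO and for 1.90% in HSC wt. In global KO, with 305, 330.2 and 375 CPM for the lowest, median and highest library, 4 of 6 libraries lay above all controls. The log2 differences from Spred1 wt were 0.15 in global KO (edgeR adjusted p = 0.793), 0.18 in EC KO (edgeR adjusted p = 0.0665) and 0.19 in HSC wt (edgeR adjusted p = 0.533), all 3 over the same controls. In EC KO, limma voom called Cd44 (0.20, adjusted p = 0.0461), and with HSC wt as control the difference was -0.01 (edgeR adjusted p = 0.958). HSC KO against HSC wt gave -0.03 (95% interval -0.16 to 0.10).

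Cxcr4 (chromosome 1, 128588199 to 128592299, minus strand) was highest in EC KO, at 127, 93.5, 145, 142 and 112 CPM, against 99.0, 109.7, 125, 94.2 and 80.2 CPM in Spred1 wt. These groups overlapped and the log2 difference was 0.28 (SE 0.155, edgeR adjusted p = 0.257). Against HSC wt, at 96.7, 64.2, 82.4, 96.0 and 81.8 CPM, 4 of 5 EC KO libraries were higher than all controls and the difference was 0.56 (SE 0.155, edgeR adjusted p = 0.0222). The HSC KO libraries stood at 116, 75, 85.5, 116 and 118 CPM, of which 3 lay above all HSC wt libraries, with a difference of 0.28 (95% interval -0.04 to 0.60, edgeR adjusted p = 0.999). Global KO had 107 ± 19 CPM, a difference of 0.07 from Spred1 wt (95% interval -0.24 to 0.38). With HSC wt as the control of EC KO, 4 of the 10 passed in all (Itga4, Itga5 and Itga6 fell and Cxcr4 rose), where 11.3% of all genes did.

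Within groups, the levels of 3 integrin chains ran with the mast cell transcripts of a library, in opposite directions. Relations to lists other than mast cell, macrophage and neutrophil were not tested. In Spred1 wt, for example, Itgam stood at 103, 79.9, 64.6, 43.9 and 42.3 CPM. The dendritic means of these libraries were 3.87, 3.23, 2.66, 2.57 and 2.49. In HSC KO the highest library differed, HSC KO 3 for Itgam (71.0 CPM) and HSC KO 1 for the dendritic mean (4.78). After group means were removed, Itga5 correlated with the mean of the 12 mast cell markers at Pearson r = 0.81 (permutation p = 0.00009, adjusted p = 0.0027 over 30 relations, Spearman rho = 0.80 with permutation p = 0.00011), Itgb1 at r = 0.66 (permutation p = 0.00576, adjusted p = 0.0432, rho = 0.68 with permutation p = 0.00304) and Itgam at r = -0.59 (permutation p = 0.00423, adjusted p = 0.0423, rho = -0.62 with permutation p = 0.00468), over 26 libraries. Without the 2 libraries farthest from the median of the marker mean (HSC KO 1 and global KO 2), r was 0.75 for Itga5 (adjusted p = 0.0187), -0.67 for Itgam (adjusted p = 0.0351) and 0.58 for Itgb1 (adjusted p = 0.263, so that this relation no longer passed). Without the 4 libraries of lowest marker mean, a choice made after the values were seen, r was 0.66 for Itga5, 0.67 for Itgb1, -0.58 for Itgam and 0.62 for Itgb2, which all passed over the 10 genes (permutation test, adjusted p = 0.0474, 0.00640, 0.0474 and 0.0474). The 14 macrophage markers gave the reverse for Itga5 (r = -0.63, rho = -0.71, permutation p = 0.00331 and 0.00105, adjusted p = 0.0423) and Itgam (r = 0.58, rho = 0.55, permutation p = 0.0077 and 0.01202, adjusted p = 0.0462). Without the 2 libraries farthest from the macrophage median these stood at r = -0.67 (adjusted p = 0.0231) and 0.51 (adjusted p = 0.126). In all, 5 of the 30 relations of the 10 genes to mast cell, macrophage and neutrophil markers passed, 3 positive and 2 negative. The share of all genes tested that would pass such relations was not computed. Whether 5 of 30 is more than among other genes is therefore not known. Itgam with the neutrophil markers had r = 0.49 (rho = 0.48, permutation test, adjusted p = 0.123) over the 26 libraries and passed without the 2 libraries farthest from the neutrophil median (r = 0.69, permutation test, adjusted p = 0.0187). Itgal had r = -0.31 with the mast cell and 0.40 with the macrophage markers, and neither passed (permutation test, adjusted p = 0.272 and 0.202). With group means removed, these values cannot speak to its difference between HSC KO and HSC wt. In that comparison 13 of 14 macrophage, 9 of 9 dendritic and 8 of 8 erythroid markers had log2 differences above 0. So had 5 of 12 mast cell and 1 of 11 neutrophil markers, and no marker of these lists passed. Their part in the level of Itgal was not tested.

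**Figure D4:**
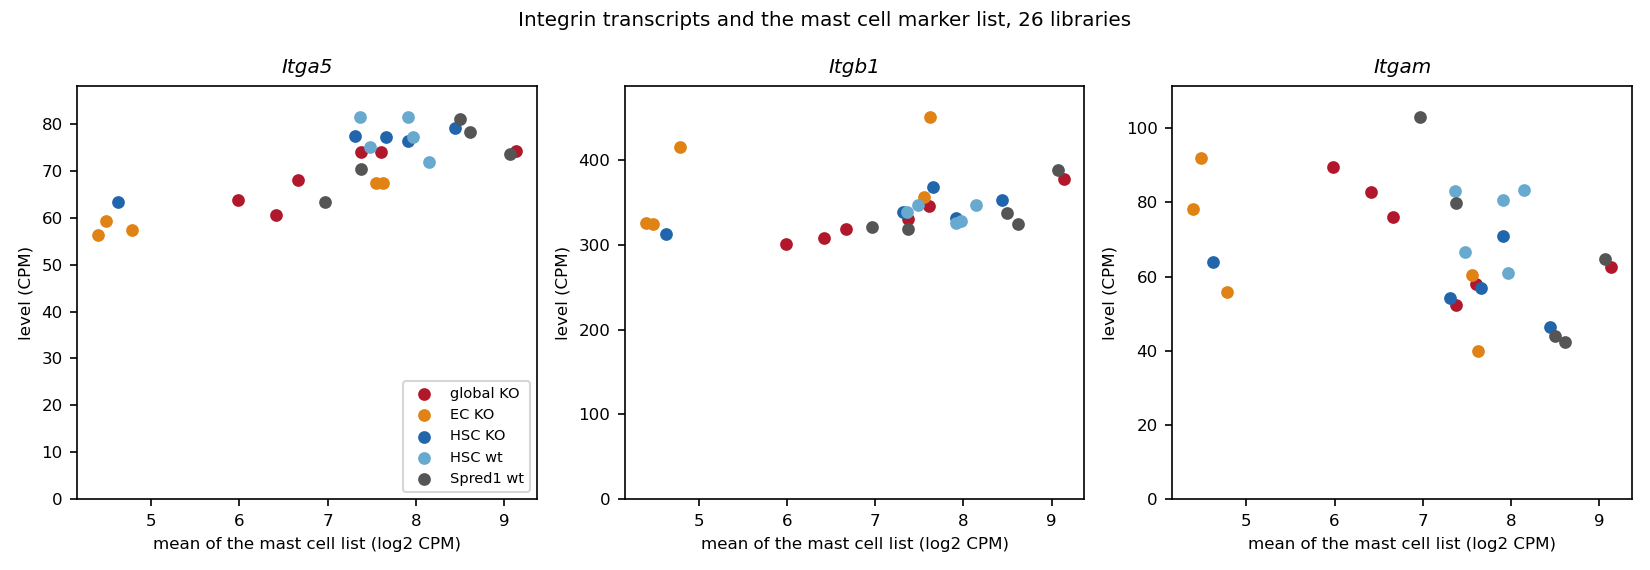
Level of Itga5, Itgb1 and Itgam in CPM (vertical axes, from 0) against the mean log2 CPM of 12 mast cell markers (horizontal axes), 1 point per library, coloured by group. Libraries EC KO 3, EC KO 4, EC KO 5 and HSC KO 1 form the left end at 4.4 to 4.78, where Itga5 stands at 56.4 to 63.3 CPM.

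For the chains that must pair for an integrin to reach the surface, no pair passed a test of moving together between libraries. Of the 5 alpha and beta pairs, 0 passed (permutation test, adjusted over 5 pairs) and 1 had an unadjusted p under 0.05. The closest, Itga5 with Itgb1, had r = 0.46 (rho = 0.52, permutation p = 0.0419, adjusted p = 0.210) and r = 0.40 without 2 libraries. Itgal with Itgb2 had r = 0.32 (rho = 0.35, permutation p = 0.229, adjusted p = 0.573). As a description over all pairs of the 10 genes, Itgb2 with Selplg had the highest r, 0.75, and Itgam with Itga5 the lowest, -0.69.

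Because Itga5 and Itgam ran in opposite directions along the mast cell axis, their promoter windows (250 bases before to 50 after the RefSeq start, GRCm38.p6) are printed, with the core of PU.1, a myeloid transcription factor, in capitals (GAGGAA, or TTCCTC where it lies on the other strand). The windows are chr15:103366742-103367041, minus strand, for Itga5 and chr7:128062390-128062689, plus strand, for Itgam.
Itga5: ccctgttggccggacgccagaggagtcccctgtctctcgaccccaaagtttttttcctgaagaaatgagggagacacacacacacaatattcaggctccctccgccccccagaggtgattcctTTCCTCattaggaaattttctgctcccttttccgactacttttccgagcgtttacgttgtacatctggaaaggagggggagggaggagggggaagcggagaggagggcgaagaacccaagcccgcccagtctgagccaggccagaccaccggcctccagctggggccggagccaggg
Itgam: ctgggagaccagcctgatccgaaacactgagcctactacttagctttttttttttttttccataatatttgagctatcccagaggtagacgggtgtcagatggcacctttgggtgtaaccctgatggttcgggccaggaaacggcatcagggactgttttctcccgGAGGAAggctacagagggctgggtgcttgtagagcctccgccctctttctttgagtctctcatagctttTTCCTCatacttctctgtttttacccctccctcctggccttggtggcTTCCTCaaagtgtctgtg
Itga5 has 1 such core, at base -127 from the start, and Itgam has 3, at -84, -15 and 32. How many cores other windows hold was not counted, and a link between these letters and the levels was not tested. RefSeq windows matched 6 of the 10 genes (Cxcr4, Itga4, Cd44, Itgam, Itgb1 and Itga5), and Itgal, Itgb2, Itga6 and Selplg had none. Of the 6, 4 (Cd44, Itgam, Itgb1 and Itga5) hold the PU.1 core on either strand, 1 (Cd44) holds the GATA core AGATAA or TTATCT, 0 the E-box CACGTG and 6 the GC box GGGCGG or CCGCCC. These letters occur in 28.3%, 11.2%, 7.15% and 35.7% of the 32851 windows of the table, in that order, and a match describes the letters only.

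By likeness of pattern over the 26 libraries (Pearson r of log2 CPM with group means removed, the closest of all genes tested), Selplg was nearest to Gnai2 (r = 0.92), a G protein subunit that relays chemokine receptor signals, then to Anxa6 (0.91) and to the actin gene Actb (0.90). Itgb2 was nearest to Cfp (0.89), which codes for properdin, Itgam to the matrix metalloprotease gene Mmp2 (0.89), Itga5 to Sipa1l1 (0.87), Itgal to the transferrin gene Trf (0.85) and Itga4 to Crocc (0.85). For Itgb1 it was Gpd2 (0.84), for Itga6 Gpam (0.81), for Cxcr4 Eda (0.76) and for Cd44 Gpr171 (0.75). The libraries share their depth and cell makeup in these values.

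The wider adhesion machinery showed no passing gene in global KO, HSC KO, HSC wt or the difference of the knockout effects. Of 132 genes in 5 lists, 0 passed there in edgeR, DESeq2 and limma voom. The lists held 17 other integrin chains, 40 genes of integrin activation and signalling, 18 integrin and homing ligands, 23 genes of selectin ligand glycosylation and 34 chemokine, lipid and other homing receptors. At an unadjusted p under 0.05, edgeR counted 9 genes of the lists in global KO, 9 in HSC KO, 7 in HSC wt and 2 in the difference, where 5.53%, 2.16%, 6.35% and 2.14% of all genes tested stood, in that order.

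In EC KO against Spred1 wt, 9 of the 132 genes of these lists passed, beside 7.96% of all genes. At an unadjusted p under 0.05 in edgeR there were 34 of the 132, beside 25.1% of all genes. Neither count stood clear of the share of all genes, so the genes below describe single transcripts and no change of the lists as a whole. Of the other integrin chains 1 of 17 fell: Itga9, which pairs with Itgb1, stood at 15.2 ± 3.88 CPM in EC KO and 38.1 ± 14.8 CPM in Spred1 wt (log2 difference -1.33, SE 0.301, edgeR adjusted p = 0.00820), with 4 of 5 libraries below all controls. Of 40 activation genes, Tln1 (talin, which opens integrins from inside) and the kinase gene Syk fell, by 0.29 and 0.24 on the log2 scale (edgeR adjusted p = 0.0272 and 0.0229), and Pxn (paxillin, an adaptor at adhesion sites) rose by 0.37 (edgeR adjusted p = 0.000252). All 5 EC KO libraries lay outside the range of Spred1 wt for each of these 3, as was so for 5.55% of all genes. Of 23 glycosylation genes, Slc35a1, the Golgi transporter that supplies the sialic acid of selectin ligands, rose, with 38.0 ± 4.0 CPM in EC KO and 23.7 ± 3.0 CPM in Spred1 wt (log2 difference 0.68, SE 0.0927, edgeR adjusted p = 8.11e-05), and Glg1, which codes for the E-selectin ligand ESL-1, fell by 0.30 (edgeR adjusted p = 0.00274). For both, all 5 EC KO libraries were also clear of all controls, as for that 5.55% of all genes. Of 34 homing receptors and their transducers, the chemokine receptor gene Ccr1 (0.94, edgeR adjusted p = 0.0282) and Cdc42, a regulator of the actin skeleton (0.20, edgeR adjusted p = 0.0223) rose and Kit, the receptor for stem cell factor, fell by 0.85 (edgeR adjusted p = 0.00447). Kit also marks the sort gate and is high in mast cells, whose markers had low means in 3 of these 5 libraries. Its fall still passed with the mast cell and macrophage means as covariates. What part of the Kit level came from mast cells was not tested. None of the 18 ligands passed, and Lamc1, a laminin chain, had the smallest p of them (log2 difference -0.32, edgeR adjusted p = 0.114). Kit, Pxn, Slc35a1 and Glg1 passed under all 19 alternatives tried in EC KO. Itga9 did not pass with the mast cell and macrophage covariates or with HSC wt as control. Tln1 and Syk did not pass with those covariates, with the Xist covariate or in the fit of the compared groups only. Cdc42 did not pass in that last fit or with no filter. Tln1, Syk, Ccr1 or Cdc42 also did not when EC KO 3, EC KO 4, Spred1 wt 2, Spred1 wt 3, Spred1 wt 4 or Spred1 wt 5 was left out, so that 5 to 14 of the 132 genes passed over the libraries left out. The list medians in EC KO were -0.18 for other integrin chains, -0.01 for activation genes, -0.08 for ligands, -0.01 for glycosylation and 0.02 for receptors, beside 0.02 for all genes tested. Of the remaining genes that the naming rule took, Itga3, Itgb6, Jam3, Col1a1 and Podxl did not pass in any comparison.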

How the data were processed

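RNA-seq of sorted LSK cells gave 26 libraries, grouped by the genotype labels into global KO (6), EC KO, HSC KO, HSC wt and Spred1 wt (5 each). The values deposited are raw read counts, whole and not normalized, 1 row per gene and 1 column per library. The submitters' processing notes name build mm10, the aligner STAR 2.6.0, the counter HTSeq 0.6.0, bcl2fastq 2.18.0.12 and edgeR 3.28.1. Annotation and strand setting are not given in the sources used here. Each of the 26 columns was matched to its sample by name, and 0 pairs held identical counts. Gene lengths and coordinates are those of the table, and overlaps of exons were read from GENCODE M21.

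From these counts, levels were computed as CPM on TMM-scaled library sizes (edgeR 4.0.16, R 4.3.3), and log2 CPM with 2 added as prior count. The filter filterByExpr (at a minimum count of 10) left 13379 of 24091 genes, fitted once with 5 group means, which leaves 21 residual degrees of freedom. Each comparison was a contrast of edgeR's quasi-likelihood F-test, two-sided, Benjamini-Hochberg adjusted over all genes tested, with a threshold of 0.05. The SE is the log2 difference over the square root of F. Relations between libraries used log2 CPM with group means removed and 100000 permutations of libraries within groups. Alternatives were RLE scaling, no filter, DESeq2 1.42.0, limma 3.58.1 voom with sample quality weights, a fit of the compared groups only, covariates (mast cell and macrophage means, Xist), each library left out, and other controls for EC KO. The fits were tested on simulated data with known changes.

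The 10 genes and the lists were chosen with earlier results of these data known. The text names all 10 (as a range for the 2 contrasts of controls and of knockout effects), their 3 nearest genes by r or the nearest alone, and of each pathway list the genes that passed in any comparison and the 3 of smallest p. Mcpt4, Gzmb, Mcpt8, Prss34 and Ms4a2 lie outside this rule and were named after their values were seen.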

Additional observations from a re-analysis of the deposited data

Results flagged for a closer look

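In 5 of 50 sets (10 genes in 5 groups), 1 library stood further from its group than Dixon's 95% critical value allows, where chance gives about 1 in 20 sets. Itgb1 reached 388 CPM in Spred1 wt 3, against 338 CPM in the nearest library of that group, and Selplg reached 233 CPM in the same library, against 179 CPM in the nearest. Itga5 had 63.3 CPM in HSC KO 1, the library with the lowest mast cell markers of HSC KO, against 76.4 CPM in the nearest. Cd44 reached 384 CPM in EC KO 4, against 339 CPM in the nearest, and 374 CPM in HSC wt 5, against 343 CPM in the nearest.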

How the results depend on the processing

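Over 990 alternative values of the 10 genes' log2 differences, 0 called values reversed, 9 passed the threshold newly, 10 lost it and 81 changed sign without a call. In the 4 comparisons other than EC KO, 0 of the 10 genes passed under any of the 80 alternative fits. In EC KO against Spred1 wt the count of 1 was 0 with no filter, 0 in the fit of the compared groups only, 0 with the Xist covariate, 4 with HSC wt and 3 with the average of HSC wt and Spred1 wt as control, and 0 to 2 with a library left out. In that comparison limma voom called Cd44 in place of Itga5, and the cause of these changes was not tested. The genes called in the whole table numbered 10 in global KO, but 35 with DESeq2, 4 in the fit of the compared groups only, 22 with the mast cell and macrophage covariates and 8 to 25 with a library left out. In HSC KO the count of 3 was 5 with DESeq2 and 5 with those covariates. In EC KO the count of 1065 was 1840 with limma voom, 333 in the fit of the compared groups only, 2733 with those covariates, 2052 against the average of HSC wt and Spred1 wt and 483 to 1880 with a library left out. In HSC wt the count of 4 was 32 with DESeq2, 16 with limma voom, 1 in the fit of the compared groups only, 10 with those covariates and 1 to 21 with a library left out. For the difference of both knockout effects the count of 2 was 7 with DESeq2, 5 with limma voom and 2 to 7 with a library left out. With group means kept, r with the mast cell markers was 0.83 for Itga5, -0.39 for Itgam, 0.25 for Itgb1, -0.53 for Cd44 and -0.52 for Cxcr4, of which Itga5, Cd44 and Cxcr4 passed (permutation test, adjusted p = 0.0003, 0.0353 and 0.0426). RLE scaling moved the median of all genes by less than 0.1 on the log2 scale. No paired analysis was possible because the labels number all samples in 1 run, so the groups share no replicate number. With 651 counts or more of each of the 10 genes in every library, the spread between libraries rather than counting limits the precision.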
